A study of Mus musculus with 6 samples.

Results

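The genes described are the lysosomal proteases of the cathepsin family that macrophages commonly express, together with legumain: Ctsa, Ctsb, Ctsc, Ctsd, Ctsh, Ctsk, Ctsl, Ctss, Ctsz and Lgmn. They were taken from the deposited table by symbol, and all 10 were found among its 53647 genes. The RNA came from macrophages of pancreatic ductal adenocarcinomas grown orthotopically in C57BL/6 mice. These were sorted by Cxcr4, the receptor for the chemokine Cxcl12, into 3 Cxcr4+ and 3 Cxcr4- libraries of total RNA. Both groups came from tumours, and no library of tumour-free tissue was among those used here. The tumour cells, the age of the mice, the sorting antibodies and any pooling of mice were not given in the sources used here. Thus p-values measure the spread between single libraries, which may be technical.

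Cathepsins are made as inactive proenzymes, carried to endosomes and lysosomes mostly by mannose 6-phosphate receptors, and activated there by acid and by one another. Most are cysteine proteases of the papain fold, whereas cathepsin D is an aspartic protease and cathepsin A a serine carboxypeptidase. Legumain, an unrelated cysteine protease that cuts after asparagine, trims several of them to their mature form. In macrophages these enzymes break down engulfed protein and prepare antigen, and part of the pool can be secreted, where it can act on matrix. Cystatins and related proteins hold the cysteine cathepsins in check.

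The upstream sequences of the genes are shown first because transcription factors of the MiT/TFE family, which drive lysosomal genes, are known to bind the palindrome TCACGTGA. RefSeq windows of 300 bases on GRCm38.p6, from 250 bases before to 50 after an annotated start, matched 8 of the 10 genes with 10 windows, and none was at hand for Ctsb and Ctsh. The palindrome occurred in 2 of the 10 windows, 1 each of Ctsa and Ctsd, and in 0.974% of all 32851 windows. Its core CACGTG, counted wherever it stood and so also inside the longer motif, occurred in 4 windows, those of Ctsa, Ctsd, Ctsl and Lgmn, and in 7.15% of all windows. Both motifs were searched on both strands, as was an interferon-response type motif, GAAA followed by any 2 bases and GAAA, which occurred in 1, that of Ctss, and in 3.44% of all. Below are the windows of Ctsd, the most abundant of the 10 transcripts, of Ctsa, of Ctsl, the gene of smallest p among the 10, and of Ctss. Each is written 5′ to 3′ on the strand of the gene with motif matches in capitals.
Ctsd, chr7:142387778-142388077, reverse strand: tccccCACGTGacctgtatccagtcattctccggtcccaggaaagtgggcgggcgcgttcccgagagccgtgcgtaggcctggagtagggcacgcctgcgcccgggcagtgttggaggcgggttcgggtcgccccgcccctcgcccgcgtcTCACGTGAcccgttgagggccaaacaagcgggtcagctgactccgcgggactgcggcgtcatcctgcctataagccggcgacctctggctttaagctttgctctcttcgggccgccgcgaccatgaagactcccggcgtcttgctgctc
Ctsa, chr2:164833523-164833822, forward strand, the second of its listed starts: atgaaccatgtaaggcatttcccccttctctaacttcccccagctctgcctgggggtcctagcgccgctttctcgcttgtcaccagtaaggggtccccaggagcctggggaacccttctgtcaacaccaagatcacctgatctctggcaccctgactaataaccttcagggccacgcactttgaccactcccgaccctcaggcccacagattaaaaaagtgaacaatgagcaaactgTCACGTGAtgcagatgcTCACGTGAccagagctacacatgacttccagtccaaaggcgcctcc
Ctsl, chr13:64370471-64370770, reverse strand: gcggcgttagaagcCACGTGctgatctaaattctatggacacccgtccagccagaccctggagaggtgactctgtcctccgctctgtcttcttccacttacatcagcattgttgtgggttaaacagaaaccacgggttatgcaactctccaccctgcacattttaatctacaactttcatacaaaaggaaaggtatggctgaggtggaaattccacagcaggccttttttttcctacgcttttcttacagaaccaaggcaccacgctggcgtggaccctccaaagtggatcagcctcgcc
Ctss, chr3:95526536-95526835, forward strand: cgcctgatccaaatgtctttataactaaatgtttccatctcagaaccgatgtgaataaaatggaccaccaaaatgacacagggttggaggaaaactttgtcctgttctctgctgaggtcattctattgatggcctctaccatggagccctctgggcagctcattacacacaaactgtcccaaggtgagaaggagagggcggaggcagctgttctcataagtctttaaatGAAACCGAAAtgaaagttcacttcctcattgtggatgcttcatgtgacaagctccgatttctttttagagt
The Ctsa window held the palindrome at 2 places, beginning 13 bases before and 4 bases after the start. In the Ctsd window it began 99 bases before the start and in the Ctss window the other motif began 21 bases before it. For Ctsa and Lgmn all matches were in the window of the second listed start, and the window of the first held none of these motifs. These are matches of letters, and no binding was measured.

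The libraries held 46444934 to 55740671 estimated counts, with every Cxcr4+ library above every Cxcr4- library, and 19457 to 20433 genes above 0. Cxcr4 RNA itself was 9.04 to 9.59 FPKM (fragments scaled to transcript length and library size) with Cxcr4 sorted for and 5.97 to 8.56 without. Of the 10 macrophage markers, the lysozyme Lyz2 was the highest at 6344 ± 865 FPKM (SD, n = 6), whereas C1qa, C1qb and C1qc averaged under 1 FPKM. The sum of the 10 was 7864 to 9694 FPKM in the Cxcr4+ group and 7085 to 8285 in the other. Markers of other cells were low. The 12 fibroblast markers summed to 17.96 FPKM in Cxcr4+ replicate 1 against 3.62 and 4.37 in the rest of its group and 2.43 to 3.49 in Cxcr4- libraries, so every Cxcr4+ sum lay above every Cxcr4- sum, and 9 of the 10 tested markers had a positive log2 fold change. The 10 epithelial markers summed to 1.83 to 3.43 in the Cxcr4+ group and 3.73 to 6.60 in the other, with 9 of 9 tested markers negative. Neutrophil markers summed to 6.66 to 10.2 FPKM over all libraries, with S100a9, Ngp and Camp listed at 0. The lists for dendritic, B, T and NK, endothelial and acinar cells each stayed under 1 FPKM in sum.

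Cathepsin transcripts were among the most abundant in both populations. Cathepsin D stood at 1496 ± 191 FPKM (SD, n = 6 libraries), rank 31 of all genes in the table, cathepsin Z at 806 ± 45.5 (rank 63) and cathepsin B at 622 ± 86.5 (rank 96). Cathepsin S, legumain, cathepsin L and cathepsin A followed at 241 ± 28.6, 224 ± 14.5, 194 ± 17.9 and 193 ± 7.45 FPKM, so that 7 of the 10 lay within the 300 genes of highest mean FPKM. Cathepsin C was lower at 13.3 ± 1.60 FPKM, and cathepsins K and H were the lowest of the 10 at 2.45 ± 0.570 and 1.02 ± 0.223. The 10 genes together took 1.14 to 1.42% of all counts of a library. Ctsd, Ctsz and Ctsb alone made up 75.2 to 79.4% of their summed FPKM.

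The order of levels was the same at its top and bottom in all 6 libraries: Ctsd above Ctsz above Ctsb, and Ctsa and Ctsl above Ctsc, Ctsk and Ctsh. The values of these neighbours did not overlap between any libraries, the narrowest gap in proportion being 750.0 as the lowest for Ctsz and 724 as the highest for Ctsb. In the middle the neighbours did overlap. Ctss exceeded Lgmn in 4 libraries, and Ctsl exceeded Ctsa in 4, the exceptions of the second pair being Cxcr4- replicates 1 and 3. Lgmn exceeded Ctsl in 6 of 6 although their ranges overlapped.

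**Figure D1:**
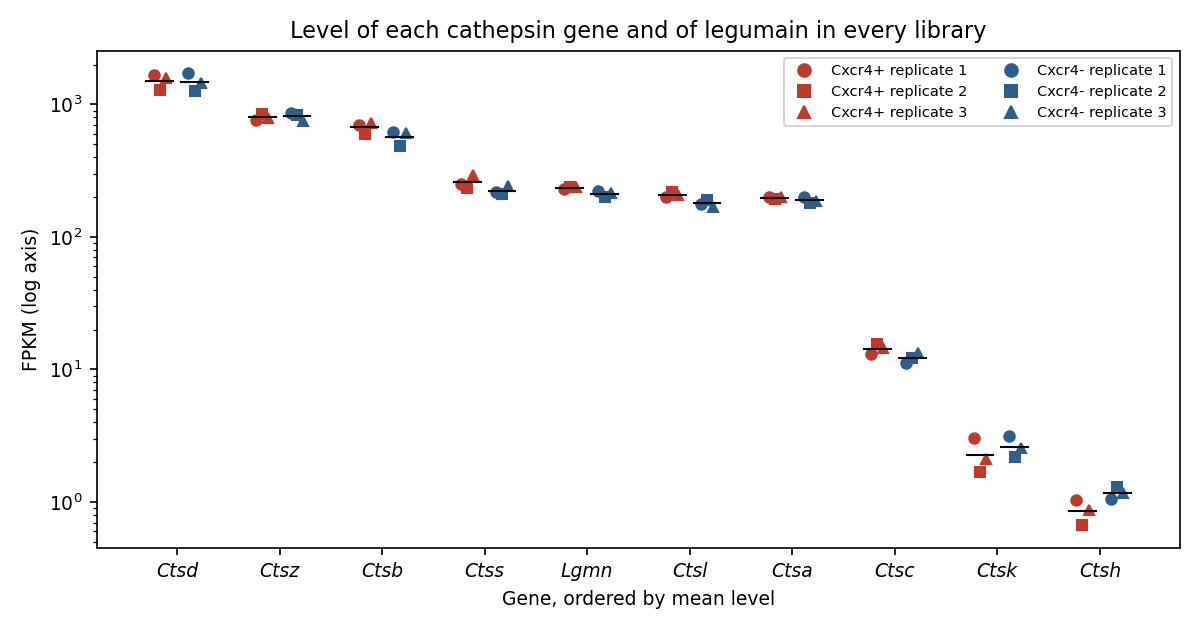
FPKM on a log axis of each gene in the 3 Cxcr4+ (red) and 3 Cxcr4- (blue) libraries, with the replicate number as the symbol and a black line at the group mean. The 7 most abundant genes lie between 169.7 and 1717 FPKM, far above Ctsc, Ctsk and Ctsh, and the groups overlap for 7 of the 10 genes.

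None of the 10 genes passed the test for a difference between Cxcr4+ and Cxcr4- macrophages by edgeR's quasi-likelihood test with Benjamini-Hochberg adjustment over 16031 genes. All 10 were tested, 0 passed an adjusted p of 0.05 (lowest 0.993, for Ctsl), and 0.0312% of all genes did. DESeq2, which called 0.405% of all genes, and limma-trend on log2(FPKM + 1) also called 0 of the 10. At an unadjusted p under 0.05 there were 2, Ctsl and Ctsc, both higher in Cxcr4+, against 4.85% of all genes. This count was 0 without Cxcr4+ replicate 3, 1 without any single Cxcr4- library and 3 without Cxcr4+ replicate 1 or 2. The log2 fold change, Cxcr4+ minus Cxcr4-, was positive for 7 of the 10 genes and for 50.1% of all genes, with a median of 0.10 against 0.00041 over all. For the 8 genes that averaged 10 FPKM or more the 95% intervals ran at most from -0.38 to 0.59, or from 0.770-fold to 1.51-fold, so larger differences lay outside the interval of each of these genes. In sorted bulk cells, fewer cells with a transcript and less transcript per cell cannot be told apart.

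The summed FPKM of the 10 genes was 4039.8, 3625 and 4039.7 in Cxcr4+ replicates 1 to 3 and 4025, 3389 and 3649 in Cxcr4- replicates 1 to 3. The groups overlapped, at 3901 ± 240 against 3687 ± 320 (SD, n = 3 each), a ratio of 1.06.

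**Figure D2:**
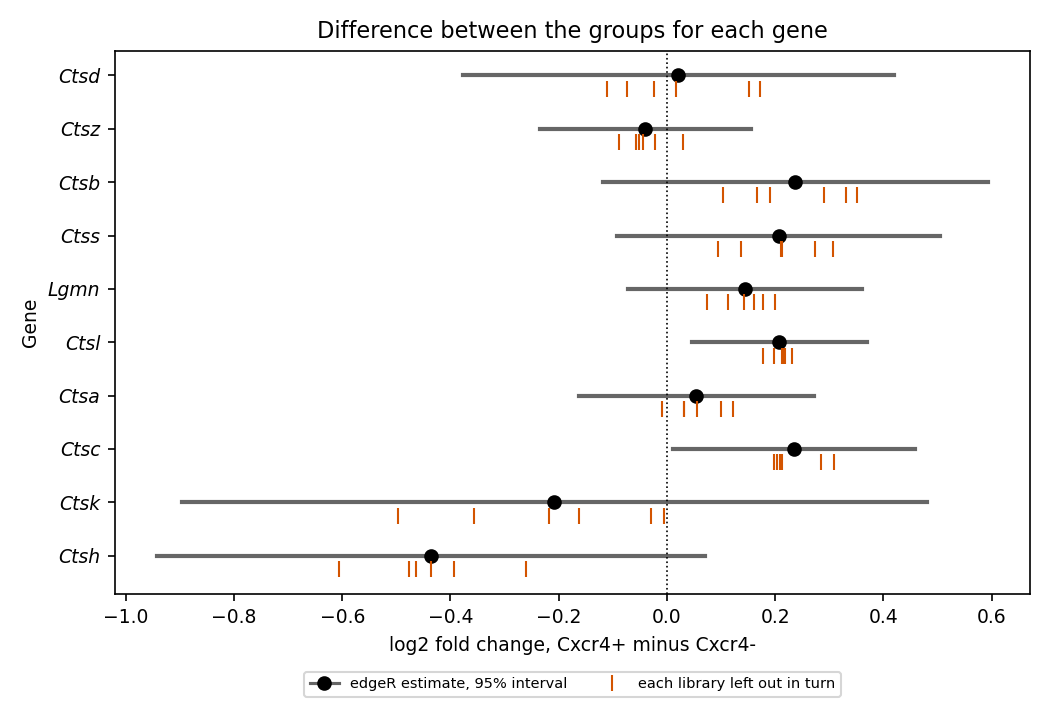
Log2 fold change of each gene, Cxcr4+ minus Cxcr4- (points, edgeR), with its 95% interval (grey bars) and the values with each library left out (orange ticks). Intervals of Ctsl and Ctsc lie above 0 before adjustment over all genes, those of the other 8 genes include 0, and Ctsk and Ctsh have the widest.

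Among the endopeptidases, cathepsin L, a broad lysosomal protease that also cuts the invariant chain of class II molecules in some cells, gave the smallest p of the 10 genes. Its values were 202, 217 and 206 FPKM in Cxcr4+ replicates 1 to 3 and 178, 192 and 169.7 in Cxcr4- replicates 1 to 3. Every Cxcr4+ library lay above every Cxcr4- library, in FPKM and in CPM scaled by TMM. The means were 208 ± 7.97 and 179.8 ± 11.1 FPKM, and edgeR gave a log2 fold change of 0.21 with an SE of 0.07 and an adjusted p of 0.993. The estimate stayed between 0.18 and 0.23 when each library was left out in turn.

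Cathepsin B, an endopeptidase that also removes dipeptides from carboxyl ends, had 705, 595 and 724 FPKM in Cxcr4+ and 619, 484 and 605 in Cxcr4- libraries, in replicate order. The groups overlapped, with replicate 2 the lowest of each. By edgeR the log2 fold change was 0.24 with an SE of 0.15 (adjusted p = 0.999), and it was 0.10 without Cxcr4- replicate 2.

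Cathepsin S keeps its activity at neutral pH and removes the invariant chain from class II molecules in antigen-presenting cells. Its values were 252, 233 and 291 FPKM in Cxcr4+ and 218, 213 and 241 in Cxcr4- libraries, and Cxcr4+ replicate 2 lay below Cxcr4- replicate 3. The fold change was 0.21 in log2 with an SE of 0.13, and edgeR's adjusted p was 0.999. Without Cxcr4+ replicate 3 the value was 0.09. The partners of cathepsin S in that pathway, named here after their values were seen, were uneven in level, and none of those tested passed. The invariant chain gene Cd74 stood at 178 FPKM and the lysosomal thiol reductase Ifi30 at 188, whereas H2-Ab1 was at 1.52 in Cxcr4+ and 1.47 in Cxcr4- libraries. The class II activator Ciita, with at most 4 counts, and H2-DMb1, listed at 0, were too low to be tested.

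Cathepsin D, the aspartic endopeptidase, had 1672, 1289.6 and 1571 FPKM in Cxcr4+ and 1717, 1265 and 1462 in Cxcr4- libraries. Replicate 2 was the lowest of both groups by a wide margin, at 0.795 and 0.796 times the mean of the other libraries of its group, and the groups overlapped fully. The difference by edgeR was 0.02 in log2 with an SE of 0.17 (adjusted p = 0.9997). It turned negative, to -0.11 at the lowest, when Cxcr4+ replicate 1, Cxcr4+ replicate 3 or Cxcr4- replicate 2 was left out.

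Legumain had 232, 236 and 240.0 FPKM in Cxcr4+ and 220.4, 202 and 215 in Cxcr4- libraries. The groups did not overlap in FPKM, at 236 ± 4.25 against 212 ± 9.73, but they did in TMM-scaled CPM. By edgeR the difference was 0.14 in log2 with an SE of 0.09 (adjusted p = 0.999), and 0.07 without Cxcr4- replicate 2.

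Among the exopeptidases the differences pointed both ways, and none passed the test. Cathepsin Z, a carboxypeptidase, had 761, 841 and 790.3 FPKM in Cxcr4+ and 859, 837 and 750.0 in Cxcr4- libraries, with a log2 fold change of -0.04 (SE 0.08) that became 0.03 without Cxcr4- replicate 1. Cathepsin A, the carboxypeptidase that also protects neuraminidase and beta-galactosidase, was the least variable of the 10, at 199.5, 194 and 198.8 against 198.7, 181 and 188 FPKM and a log2 fold change of 0.05 (SE 0.09). The groups overlapped for both genes.

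Cathepsin C, the dipeptidyl peptidase that activates the granule serine proteases of neutrophils, mast cells and cytotoxic lymphocytes, had 13.1, 15.6 and 14.5 FPKM in Cxcr4+ and 11.2, 12.1 and 13.2 in Cxcr4- libraries. A single pair overlapped, Cxcr4+ replicate 1 and Cxcr4- replicate 3. By edgeR the difference was 0.24 in log2 with an SE of 0.10 (adjusted p = 0.999). Of the 6 listed proteases that it activates, 4 were listed at 0 in every library, and the highest, Prtn3, had 0.238 FPKM.

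Cathepsin H, an aminopeptidase that lung epithelium also makes, and cathepsin K, the collagenase of osteoclasts, were the members lower in Cxcr4+ libraries besides Ctsz. Ctsh had 1.04, 0.668 and 0.871 FPKM in Cxcr4+ and 1.06, 1.30 and 1.16 in Cxcr4- libraries, groups that just failed to overlap. The difference by edgeR was -0.44 in log2 with an SE of 0.22 (adjusted p = 0.999), and -0.26 to -0.61 with each library left out. The summed epithelial markers were also lower in every Cxcr4+ library than in any Cxcr4- library, although the groups overlapped in FPKM for 6 of the 9 tested markers, and their part in the Ctsh values was not tested. Ctsk had 3.06, 1.68 and 2.10 against 3.12, 2.17 and 2.57 FPKM, a log2 difference of -0.21 with an SE of 0.29, and replicate 1 was the highest of both groups. Its estimate ranged from -0.50 without Cxcr4+ replicate 1 to -0.0060 without Cxcr4+ replicate 2.

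Fibroblasts can express Ctsk too. Cxcr4- replicate 1, the library with the most Ctsk, had 2.53 FPKM of summed fibroblast markers, against 17.96 in Cxcr4+ replicate 1, and the part of fibroblasts in the Ctsk values was not tested. Osteoclast markers, of which the gelatinase Mmp9 was the highest at 20.2 ± 3.20 FPKM (SD, n = 6) and Calcr was listed at 0, summed to 37.9, 35.3 and 32.9 FPKM in Cxcr4+ and 43.1, 39.6 and 36.0 in Cxcr4- libraries. This sum was highest in replicate 1 of each group, as were Mmp9 and Acp5, but Dcstamp was highest in replicate 2 of each and Nfatc1 in replicate 3 of each. Their part in the Ctsk values was not tested.

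In all, the FPKM values of the groups did not overlap for 2 genes higher in Cxcr4+ (Ctsl and Lgmn), against 5.5% of all tested genes, and for 1 gene lower (Ctsh), against 4.87%. In TMM-scaled CPM these were 1 (Ctsl) and 1 (Ctsh), against 5.84% and 5.15%.

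Of the 10 genes, 5 were lowest in replicate 2 of both groups: Ctsa, Ctsb, Ctsd, Ctsk and Ctss, against 13.9% of all tested genes. Ctsb in replicate 2 was 0.833 times the mean of the other Cxcr4+ libraries and 0.790 times that of the other Cxcr4- libraries. In replicate 2 Ctsl and Ctsz were instead above the mean of the other libraries of the group, Ctsl at 1.07 and 1.10 times and Ctsz at 1.08 and 1.04 times. Summed macrophage markers, most of which is Lyz2, were also lowest in replicate 2 of each group, at 7864 and 7085 FPKM. Singly, Lyz2 and Adgre1 were lowest in replicate 2 of each group, whereas Csf1r, Cd14 and Fcgr1 were highest there. Cd68 and Mertk were lowest in replicate 2 of the Cxcr4+ group alone. The part of these markers was not tested.

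**Figure D3:**
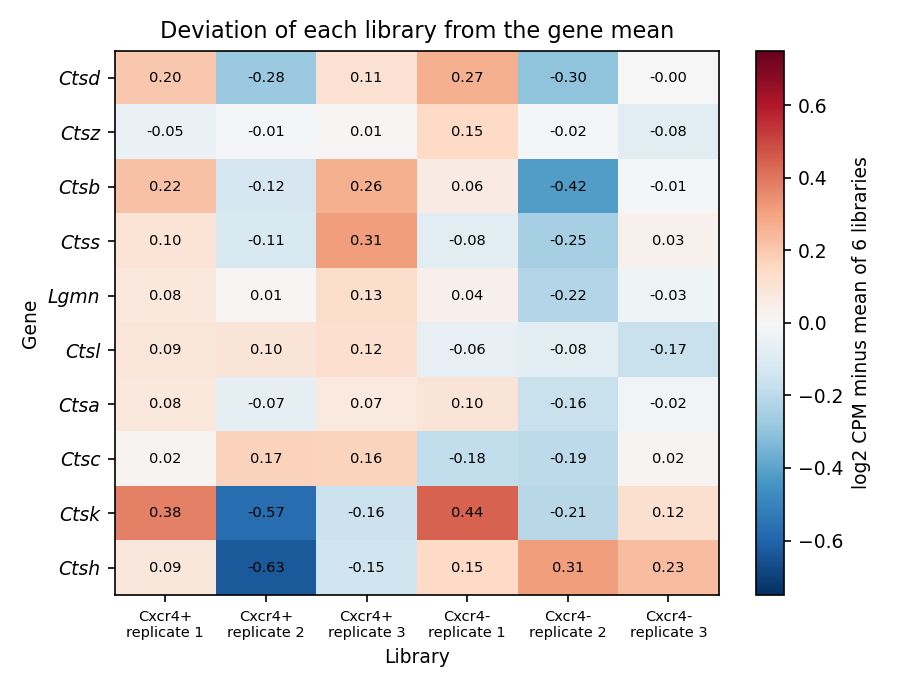
Log2 CPM of each gene in each library minus its mean over the 6 libraries (red above, blue below, value printed in each cell). The Ctsd and Ctsb rows are low in replicate 2 of both groups, at -0.28 and -0.30 for Ctsd, while the Ctsl row is positive in all 3 Cxcr4+ and negative in all 3 Cxcr4- libraries.

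The genes around the proteases were read from lists of inhibitors, sorting machinery and substrates. No gene of these lists passed the edgeR threshold in either direction, against 0.0312% of all genes.

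The cathepsin inhibitors held the largest differences among related genes that averaged 1 FPKM or more. Of 21 listed, 20 were in the table and 12 tested, of which 9 were lower and 3 higher in Cxcr4+, with a median log2 fold change of -0.43 against 0.00041 over all genes. Over the 9 tested inhibitors that averaged 1 FPKM or more the median was -0.03, with 6 lower and 3 higher. Cystatin C (Cst3), a secreted inhibitor named after its values were seen, had 366 ± 8.28 against 373 ± 44.4 FPKM, and the cytosolic cystatin B (Cstb), the highest of the list, 459 ± 52.1 against 449 ± 19.3 (SD, n = 3 each).

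Ctla2a and Ctla2b, neighbouring genes on chromosome 13 whose products resemble the inhibitory propeptide of cathepsin L, were the inhibitors of smallest p. Ctla2a (61081969 to 61084439 in GRCm39, reverse strand) had 1.08, 0.959 and 1.02 FPKM in Cxcr4+ and 2.46, 2.35 and 1.84 in Cxcr4- libraries, from 124 to 146 and 207 to 297 counts. Ctla2b (61043164 to 61045219, reverse strand) had 3.75, 2.93 and 2.92 against 4.73, 6.85 and 6.48 FPKM. For both genes every Cxcr4+ library lay below every Cxcr4- library.

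By edgeR the difference in log2 was -1.10 with an SE of 0.20 for Ctla2a (adjusted p = 0.502) and -0.90 with an SE of 0.19 for Ctla2b (adjusted p = 0.678), so neither passed. DESeq2 did call both, with adjusted p of 0.00171 and 0.0112. With each library left out the log2 fold changes ran from -1.21 to -0.99 and from -1.05 to -0.81. The genes are close copies, so the authors' counting could have divided reads between them, and Ctla2b overlaps the predicted gene Gm49392 on the same strand.

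Other inhibitors, named after their values were seen, pointed both ways. Cst7, the cystatin F of immune cells that acts on cathepsin C, had 3.05, 4.10 and 3.35 FPKM in Cxcr4+ and 2.50, 2.63 and 1.83 in Cxcr4- libraries, a difference of 0.58 in log2 with an SE of 0.22 (edgeR, adjusted p = 0.998). Csta3, a stefin of the cystatin A cluster, had 12.3, 8.86 and 11.8 against 19.7, 12.5 and 16.2 FPKM, a difference of -0.57 in log2 with an SE of 0.26 (edgeR, adjusted p = 0.999). The Csta3 value ran from -0.75 to -0.36 with each library left out. The groups did not overlap in FPKM for either gene, but those of Csta3 did in TMM-scaled CPM.

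**Figure D4:**
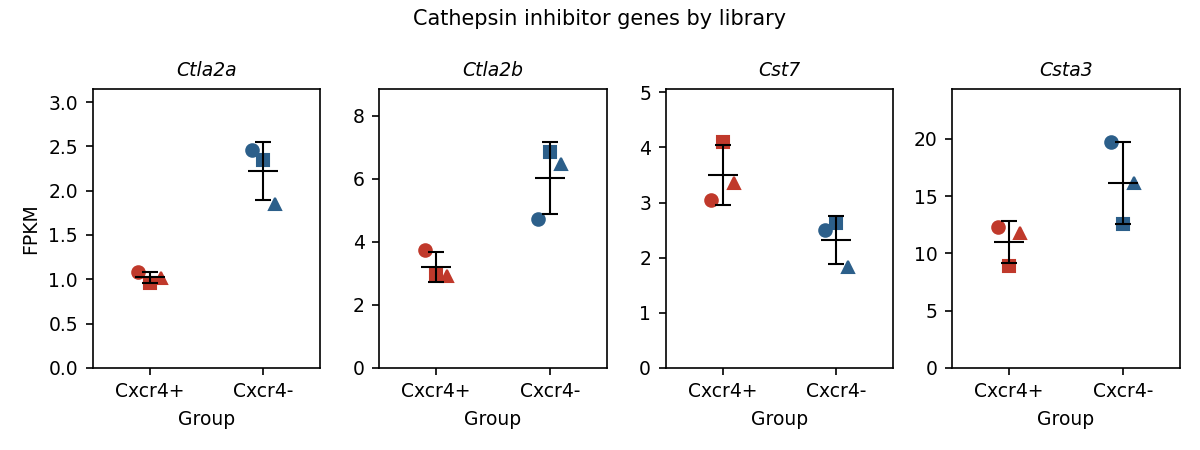
FPKM of 4 inhibitor genes in each library (symbols by replicate number), with group mean and SD in black. Ctla2a, Ctla2b and Csta3 are lower and Cst7 is higher in all 3 Cxcr4+ than in all 3 Cxcr4- libraries, and none passed the edgeR test. The 4 were picked for this from the 9 tested inhibitors of at least 1 FPKM, and the rest, with Cst3 and Cstb, overlapped. Of all tested genes, 4.87% were lower and 5.5% higher without overlap. In TMM-scaled CPM the Csta3 groups overlapped.

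Cathepsins outside the 10 were scarce. Of 14 listed, 10 were listed at 0 in all libraries, including Ctsg and those of the mouse placental cluster, and 3 were tested: Ctsf at 4.66 FPKM, Ctse at 3.13 and Ctso at 2.39. Ctse, an aspartic protease of gastric epithelium and immune cells, had 3.73 ± 0.678 in Cxcr4+ against 2.53 ± 0.529 FPKM in Cxcr4- libraries (SD, n = 3 each), with overlapping groups and a log2 difference of 0.55 with an SE of 0.19 (edgeR, adjusted p = 0.998).

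For the machinery that delivers the enzymes, medians were near 0. The 12 sorting genes had a median log2 fold change of 0.01, with 7 higher and 5 lower. Prosaposin (Psap) was the highest at 556 FPKM, the adaptor Gga3 had 11.5 ± 0.114 against 8.54 ± 2.38 FPKM (0.44 in log2, SE 0.16) and progranulin (Grn) 109 ± 4.71 against 138 ± 33.2 (-0.35, SE 0.20). The mannose 6-phosphate receptors, named after their values were seen, had 71.9 ± 1.85 against 76.7 ± 1.67 (M6pr) and 23.9 ± 3.36 against 25.9 ± 4.63 FPKM (Igf2r). Groups did not overlap in FPKM for 1 sorting gene higher (Gga3) and 1 lower (M6pr), against 5.5% and 4.87% of all tested genes. The 17 proton pump genes had a median of 0.04, with 13 higher and 4 lower, where 50.1% of all tested genes were higher. Their groups did not overlap in FPKM for 5 genes higher and 0 lower, against 5.5% and 4.87% of all tested genes.

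Of the pump genes, Tcirg1 was the highest at 165.7 FPKM, and Atp6v0d2, with the smallest p, reached 45 counts at most. Another was Atp6ap1, at 37.1 ± 0.927 against 33.1 ± 1.47 FPKM. In FPKM the groups of Atp6v0d2 and Atp6ap1 did not overlap, but those of Atp6ap1 did in TMM-scaled CPM. The lysosomal transcription factors had a median of -0.02 over 4 genes, from -0.15 to 0.11 with each library left out, with Tfe3, the highest, at 11.2 FPKM in both groups, and Tfeb at 1.97 ± 0.479 against 2.25 ± 0.608. Tfec did not exceed 16 counts.

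Enzymes that share the lysosome with the cathepsins did not pass the test in either direction. The 3 partners of cathepsin A were each positive, with a median log2 fold change of 0.10. The neuraminidase Neu1 had 51.3 ± 1.05 against 47.9 ± 2.93 FPKM and the sulfatase Galns 13.3 ± 1.41 against 10.7 ± 3.16. Of 5 other lysosomal peptidases 3 were positive, with a median of 0.12 that was 0.01 without Cxcr4+ replicate 3. The serine carboxypeptidase Scpep1 had 75.2 ± 6.02 against 62.8 ± 3.94 FPKM, a difference of 0.25 in log2 (edgeR, SE 0.07, adjusted p = 0.953). Its groups alone of the 5 did not overlap in FPKM. Over all tested genes 5.5% did not overlap and were higher in Cxcr4+. The tripeptidyl peptidase Tpp1 had 47.1 ± 13.8 against 38.3 ± 2.64 FPKM.

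Class II processing genes had a median of 0.03 over 8 tested, with H2-Eb1 at 2.94 ± 0.306 against 3.47 ± 1.08 FPKM and H2-Ob at 56 counts at most. The list of endosomal Toll-like receptors, which cathepsins and legumain cleave to their signalling form, also held their chaperone Unc93b1, at 95.6 FPKM. Over these 6 genes, chaperone included, the median was -0.0063, and it became 0.24 without Cxcr4+ replicate 3. In that list Tlr3 had 0.456 ± 0.0911 against 0.261 ± 0.0898 FPKM and Tlr13 3.86 ± 0.795 against 3.09 ± 0.317.

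**Figure D5:**
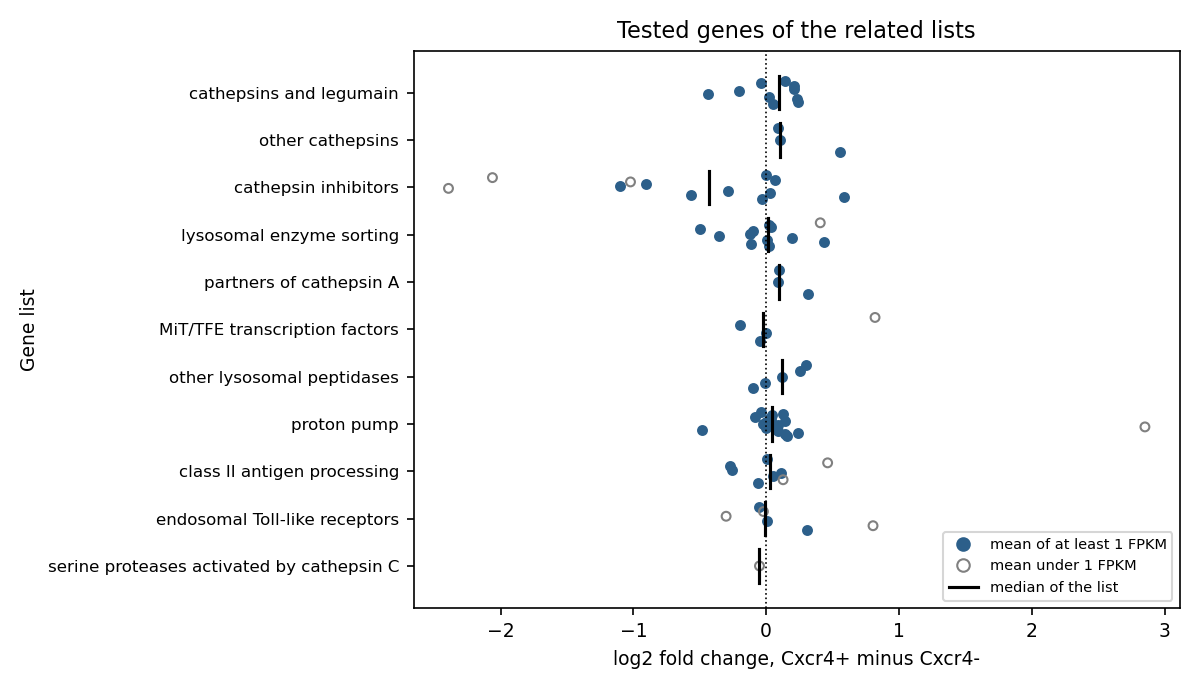
Log2 fold change of every tested gene of the 10 proteases and of the related lists (filled, mean of at least 1 FPKM; open, under 1 FPKM), with the median of each list as a black line. The widest spread among genes of at least 1 FPKM is in the inhibitors, from -1.10 for Ctla2a to 0.58 for Cst7, and most other points lie near 0.

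Several of the 10 loci overlap other genes, and the sources used here do not say whether counting used strand. In GRCm39 the forward-strand genes are Ctsa (chr2:164674793-164681939), Ctsb (chr14:63359911-63383372), Ctsc (chr7:87927293-87960096), Ctsh (chr9:89936205-89958142), Ctsk (chr3:95406567-95416673) and Ctss (chr3:95434097-95463714). Those on the reverse strand are Ctsd (chr7:141929648-141941775), Ctsl (chr13:64507151-64518704), Ctsz (chr2:174269286-174280832) and Lgmn (chr12:102360343-102406072). The 3′ end of Ctsb overlaps Fdft1 on the other strand, which reached 3337 counts against at least 163460 for Ctsb. Ctsa overlaps Pltp and Neurl2, and Ctsz overlaps Nelfcd, all on the other strand and each with at most 1642 counts. On the same strand, Ctsd overlaps Gm49369, listed at 0, Ctsl overlaps Gm49230 (at most 7 counts) and Ctss overlaps Hmgb1-ps5 (at most 130). Ctsk and Ctss lie next to each other on chromosome 3, on the forward strand and 17423 bases apart, with mean levels of 2.45 and 241 FPKM.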

How the data were processed

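The 6 libraries were made of total RNA, 3 Cxcr4+ and 3 Cxcr4-, and grouped by their labels. Cutadapt, HISAT2, StringTie and GRCm39 are named in the submitters' processing notes, with neither versions nor counting settings in the sources used here. Per gene and library, the authors deposited, in 1 table of 53647 genes, an estimated count and an FPKM value, per the file headers. All counts were whole numbers. Of those from 1 to 20, 43.2% were multiples of 4, so a low count can overstate the fragments behind it.

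Here edgeR 4.0.16 (R 4.3.3) was run on the counts of 16031 genes kept by filterByExpr (minimum count 10), with TMM scaling, the quasi-likelihood test, group as the sole term and Benjamini-Hochberg adjustment at 0.05. SE is the size of the log2 fold change over the square root of F. The procedure was tested on simulated data. The genes and lists were chosen with earlier results of these data known. Named are the 10 genes and, per related list, the gene of highest FPKM and the 2 of smallest p, with exceptions stated as such; markers were read from separate lists. Alternatives used DESeq2 1.42.0, limma 3.58.1, other scalings, filters and pseudocounts, the replicate number as a block, and left-out libraries. Figures were drawn with matplotlib 3.10.9.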

Additional observations from a re-analysis of the deposited data

How the results depend on the processing

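The count of members past the threshold was 0 in all 21 alternatives. The median log2 fold change of the 10 genes ran from 0.03 without Cxcr4- replicate 2 to 0.19 without Cxcr4- replicate 1, and the number of positive genes from 5 to 8 under the same settings. Other scalings, filters, pseudocounts and tests left the number at 7, as did a pair of alternatives chosen after seeing the data (libraries 1 and 3 alone, or libraries 2 as a block). The direction turned only for genes near 0 when a library was left out: Ctsd ranged from -0.11 to 0.17, Ctsz from -0.088 to 0.031 and Ctsa from -0.0093 to 0.12. The ratio of the summed level ran from 1.02 to 1.11 with libraries left out.

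The labels do not say that replicate numbers pair the libraries. Deviations of same-numbered libraries correlated at 0.04, 0.14 and 0.05 for numbers 1 to 3, and 4 of 6 libraries correlated best with their own number. With the replicate number as a block 0 members passed and the median was 0.10. At an unadjusted p under 0.05 there were then 4 members (Ctsb, Ctsc, Ctsl and Ctss) and 1495 of all 16031 genes, against 2 and 777 without the block. With libraries numbered 2 as a block, an alternative chosen after seeing the data, there were 5 and 1485.

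Over all genes 5 passed with edgeR, 65 with DESeq2, 1 to 3 with limma-trend, 0 with the replicate block and 1 to 9 with a library left out. In the inhibitor list, DESeq2 called 2 genes against 0 by edgeR, and the list's median ran from -0.75 without Cxcr4- replicate 2 to -0.04 with a minimum of 1 CPM, which leaves fewer genes. The low counts of Ctsh and Ctsk, 150 to 330 per library, limit their precision, and 3 libraries per group limit that of all genes.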

Other observations

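The level of one protease relative to another removes whatever shifts them together in a library, and these ratios were examined after the values had been seen. Among the 8 genes that averaged 10 FPKM or more there are 28 pairs, and the ratio did not overlap between the groups for 3 of them, against 11.9% of all pairs of tested genes at that level, so the members did not stand out. The 3 were Ctsb to Ctsd, Ctsl to Ctsz and Ctsa to Lgmn. Ctsb to Ctsd was 0.421, 0.462 and 0.461 in Cxcr4+ and 0.361, 0.382 and 0.414 in Cxcr4- libraries, although each gene on its own overlapped. Ctsl to Ctsz was 0.265, 0.258 and 0.261 against 0.207, 0.229 and 0.226.

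Among 80 tested candidates from the members and related lists, the genes whose log2 CPM ran closest to Ctsl over the 6 libraries were Scpep1 and Neu1, with root mean square differences of 0.0563 and 0.0671. Those closest to Lgmn were Ctsa (0.0520) and Atp6ap1 (0.0601). The nearest to Ctsh were Atp6v1f and Ctla2b at 0.255 and 0.266. This measure also grows with the spread of the gene itself. FPKM varied over the 6 libraries by 21.9% of the mean (SD) for Ctsh, 9.22% for Ctsl and 6.48% for Lgmn. The distances therefore cannot be compared between these genes.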
